A study of Mus musculus with 42 samples.

Results

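The ATP-binding cassette (ABC) genes form a large family of membrane pumps and related proteins, and 48 of them were followed here in mouse bone marrow stromal cells. They were taken as every entry of the RNA count table whose symbol is Abca to Abcg followed by a number and at most 1 letter, leaving out Abca1 and Abcg1, which gave 48 of 45317 gene entries. Of these, 24 were expressed, meaning that edgeR's filter on low counts kept them, and 24 were not. All 7 subfamilies had at least 1 expressed gene: 6 of 15 in ABCA, 5 of 10 in ABCB, 4 of 10 in ABCC, 4 of 4 in ABCD, the single ABCE gene, 3 of 3 in ABCF and 1 of 5 in ABCG.

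Most ABC proteins use the energy of ATP to move a substrate across a membrane. ABCA and ABCG proteins mainly carry lipids and sterols, ABCB and ABCC proteins carry drugs, conjugates, peptides and mitochondrial metabolites, and ABCD proteins bring fatty acids into peroxisomes or cobalamin out of lysosomes. ABCE and ABCF proteins carry the same ATP-binding domains but have no membrane part and act on ribosomes. Abca1 and Abcg1, the cholesterol exporters set aside here, are the classical targets of the liver X receptors, which work as dimers with the retinoid X receptor (RXR).

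The study asked how RXR ligands act on undifferentiated multipotent stromal cells, which can become fat or bone cells. The cells were a commercial stock of C57BL/6 long-bone marrow cells, bought at passage 6 and used at passage 9 to 10; 24 h after plating they received a compound, and RNA was taken after 48 h of exposure. Each of 4 groups had 6 RNA libraries: 0.1% DMSO, the solvent control; 100 nM rosiglitazone, a ligand of the fat-cell receptor PPARγ; 100 nM AGN194204, a synthetic RXR ligand; and 50 nM tributyltin (TBT), an organotin compound that binds both RXR and PPARγ. Chromatin immunoprecipitation followed by sequencing covered H3K4me3, a mark of active gene starts, and H3K27me3, a mark of Polycomb repression, with 4 DMSO and 4 TBT libraries each. All groups came from 1 purchased stock of a single strain, and the sources used here do not say whether treated wells also held DMSO. The labels do not tie the libraries of a group to separate cultures, and p-values then measure only the spread between these libraries, which may be technical.

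The RNA libraries held 3801758 to 5347365 reads counted to genes. TBT replicate 2 stood apart from its group: its chi-square per degree of freedom against the other TBT libraries was 3.43 to 4.87, against at most 2.88 for every other pair within a group, and 24.3% of its reads lay outside genes, the highest share. Without it 5 ABC genes were higher and 4 lower against DMSO, the same counts as with it. Stromal markers were present (8 of 8 tested, from 3.14 CPM for Nt5e to 399 CPM for Cd44 in DMSO), while 3 of 7 macrophage and blood markers were also expressed: Cd14 averaged 41.1 to 49.7 CPM per group, Csf1r 5.16 to 7.16 and Cd68 4.50 to 5.40. The defining blood marker Ptprc stayed at 0.0830 CPM or less in every group mean and Adgre1 had no count. The summed level of the 7 was 53.9 to 61.7 CPM in DMSO, 45.8 to 54.5 under rosiglitazone, 57.7 to 67.6 under AGN194204 and 57.0 to 68.8 under TBT. Adipocyte markers moved with the treatments: 2 of 8 were tested, Fabp4 and Lpl, and edgeR called both higher under each compound. Of all genes 15% were higher under TBT, 12.8% under AGN194204 and 0.615% under rosiglitazone. The summed level of the 8 adipocyte markers was 159 to 171 CPM in DMSO, 234 to 254 under rosiglitazone, 323 to 372 under AGN194204 and 401 to 437 under TBT. Adipoq, which defines mature adipocytes, had 1 count in DMSO and 0 under every compound, and Lep had 0 throughout; the part of these markers in the ABC results was not tested. Of the stromal markers 2 rose and 2 fell under TBT (15% and 13.9% of all genes). Under AGN194204 3 rose and 2 fell (12.8% and 11.3%). Among those that fell was Cd44, by 0.41 under TBT. The summed stromal level stayed within 923 to 1060 CPM in all libraries.

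Which of the 48 genes these cells use was the first question. Levels are given as CPM, each gene's share of the gene counts of its library scaled to the same total in every library, which are not divided by transcript length, so they serve to compare 1 gene between libraries and not genes with each other. The 24 expressed genes had means over the 24 libraries from 2.50 CPM (Abcb6, a porphyrin transporter) to 308 CPM (Abcf1, which acts in translation initiation). Abcf1, Abce1, Abcf2 and Abcc1 together held 51.2% of all counts given to the 48 genes. Just outside the filter lay Abca4 with 1.54 CPM and Abcb9 with 1.44 CPM, next to Abcb6 just inside it. The summed level of the 48 genes was 1697 ± 21.4 CPM in DMSO, 1676 ± 30.6 under rosiglitazone, 1684 ± 23.8 under AGN194204 and 1708 ± 45.7 under TBT (SD, n = 6 libraries each), and the ranges of the 4 groups overlapped.

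**Figure D1:**
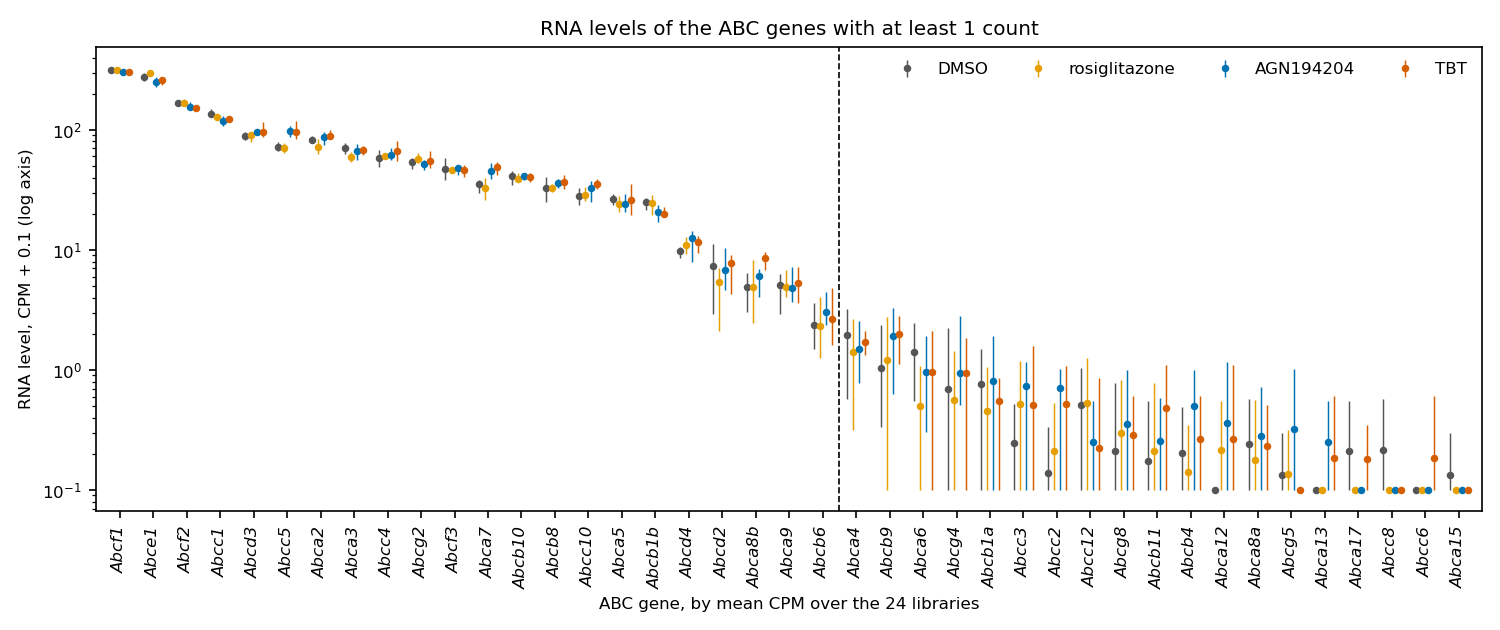
Mean RNA level in each treatment (points) of 41 ABC genes with at least 1 count in any library, with the lowest and highest of 6 libraries (bars), as CPM plus 0.1 on a log axis. The 22 genes left of the dashed line passed the filter on low counts; the order is by mean CPM, which is not corrected for transcript length.

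The genes that were not expressed include several known from specialised tissues. Of the 24, 5 had no count in any library: Abca14, Abca16, Abcb5, Abcc9 and Abcg3, the group total of 0 allowing up to 0.110 to 0.117 CPM (3 counts over a group, counting error only). The other 19 were Abca4, Abca6, Abca8a, Abca12, Abca13, Abca15, Abca17, Abcb1a, Abcb4, Abcb9, Abcb11, Abcc2, Abcc3, Abcc6, Abcc8, Abcc12, Abcg4, Abcg5 and Abcg8. They include the bile salt, phospholipid and sterol pumps of the liver and gut (Abcb11, Abcb4, Abcg5 and Abcg8) and the potassium channel subunit Abcc8 of pancreatic beta cells. Apart from Abca4 and Abcb9, none reached more than 12 counts in a library. Abcc2, the canalicular pump for conjugates, had 1 count in all DMSO libraries together, 3 under rosiglitazone, 16 under AGN194204 and 11 under TBT. When the fit was repeated with no filter, the 19 genes with a count could be tested and the 5 without one could not. Abcc2 was the only 1 of the 19 to pass in any of the 6 comparisons. Its edgeR adjusted p was 0.015 for AGN194204 against DMSO and 0.059 for TBT against DMSO. Over all genes that fit called 1512 higher and 1261 lower for AGN194204 against DMSO.

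Most expressed ABC genes, and few unexpressed ones, carried H3K4me3 at their starts. RefSeq start sites on the same genome build as the files were at hand for 37 of the 48 genes. Among 18 expressed genes with a start, 17 (94.4%) had an H3K4me3 island within 1000 bases of it in all 8 libraries, against 4 of 19 unexpressed genes (21.1%). Over all genes the shares were 94.7% of expressed and 14.9% of unexpressed genes, so the ABC genes lay close to the background. The exception among expressed genes was Abca9, with islands in 4 of 8 libraries. The 4 unexpressed genes with islands in all 8 libraries were Abca17, Abcb4, Abcb9 and Abcg8; the start of Abca17 lies in the same H3K4me3 region as that of its expressed neighbour Abca3 (chr17:24348601-24356600, mm10). H3K27me3 islands lay at the start in all 8 libraries for 0 of 18 expressed ABC genes, against 2.16% of all expressed genes. Among 19 unexpressed ABC genes this held for Abcg8 alone (5.26%), against 10.7% of all unexpressed genes.

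The 250 bases before the start held a median of 20 CpG dinucleotides in expressed ABC genes (range 2 to 35) and 6 in unexpressed ones (0 to 18), against 18 in all expressed genes and 6 in all genes with a start site. The closely related pair Abcb1a and Abcb1b, both P-glycoprotein drug pumps that human cells carry as a single gene, differs in the same direction. With 9 CpG, Abcb1b lies below the median of expressed ABC genes and within the range of unexpressed ones. Abcb1b averaged 22.5 CPM and had H3K4me3 islands in all 8 libraries, while Abcb1a averaged 0.543 CPM and had none. Their upstream sequences are printed to show the CpG difference (RefSeq, GRCm38.p6, plus strand, 5′ to 3′, capitals mark CpG): Abcb1b at chr5:8797897-8798146 holds 9 and Abcb1a at chr5:8566841-8567090 holds 0.
Abcb1b: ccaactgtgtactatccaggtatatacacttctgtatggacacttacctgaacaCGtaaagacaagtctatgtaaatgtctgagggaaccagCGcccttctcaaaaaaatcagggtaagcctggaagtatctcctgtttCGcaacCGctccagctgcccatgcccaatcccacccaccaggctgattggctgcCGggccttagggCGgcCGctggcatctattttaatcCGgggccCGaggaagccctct
Abcb1a: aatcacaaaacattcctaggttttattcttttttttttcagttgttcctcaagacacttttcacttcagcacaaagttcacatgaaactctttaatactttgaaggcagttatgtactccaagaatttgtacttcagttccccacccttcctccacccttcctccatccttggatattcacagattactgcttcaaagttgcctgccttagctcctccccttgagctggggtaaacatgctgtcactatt

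**Figure D2:**
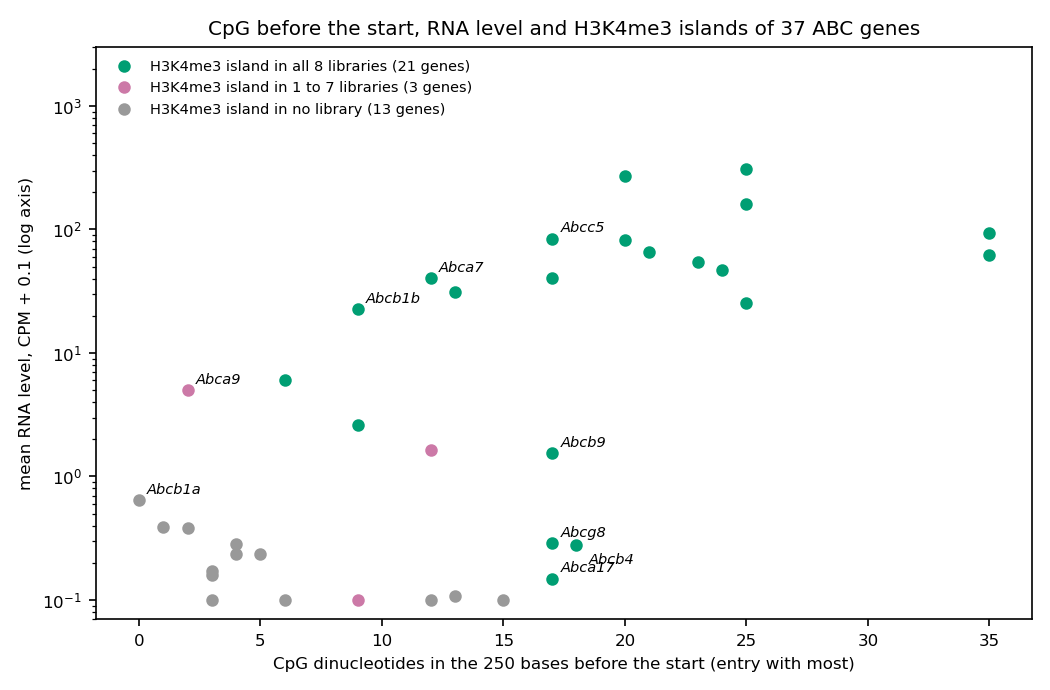
CpG dinucleotides in the 250 bases before the start (x, the start with most CpG for genes with several) against the mean RNA level over 24 libraries (y, CPM plus 0.1, log axis) for 37 ABC genes, coloured by the number of H3K4me3 libraries with an island within 1000 bases of a start. The 21 genes with an island in all 8 libraries include 4 unexpressed genes, named in the lower part.

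TBT against DMSO asks how the organotin shifts the ABC genes. TBT raised 5 of the 24 expressed genes and lowered 4, so 37.5% passed the test against 28.9% of all 12529 genes tested. Among those that rose were the lipid transporters Abca7 and Abca8b and the organic anion pumps Abcc5 and Abcc10, by 0.33 to 0.82 on the log2 scale. Among those that fell were the drug pumps Abcb1b and Abcc1 and the translation factor Abcf2, by 0.13 to 0.33. Over the 24 genes the median log2 fold change was 0.07, and over all genes it was -0.01. For reference, Abca1 and Abcg1 rose by 4.55 ± 0.11 and 2.30 ± 0.13 (log2 ± SE), far above any of the 24. Calls are edgeR quasi-likelihood tests over all 24 libraries with a Benjamini-Hochberg adjusted p of at most 0.05. Scaled to the ERCC spike-ins, RNA added in fixed amounts, 4 genes were higher and 0 lower. Over all 12529 genes 1802 were higher and 293 lower with that scaling, against 1878 and 1745 without it. The falls of the ABC genes thus hold relative to the other genes, and their call does not hold relative to the spike-ins. TBT replicate 2, which stood apart from its group, had 5347365 gene counts beside 17423 ERCC counts. The other TBT libraries had 4023214 to 4870179 gene counts beside 16859 to 19422 ERCC counts. Spike-in scaling without TBT replicate 2 was not run for any comparison, so its part in this result was not tested.

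AGN194204 against DMSO asks the same of a synthetic RXR ligand. Of the 24 genes 3 rose, among them Abca7 and Abcc5, and 3 fell (Abcb1b, Abcc1 and Abce1), 25% against 24.1% of all genes, which is the background share. With ERCC scaling 2 were higher and 0 lower. Of all genes 908 were higher and 300 lower with it, against 1600 and 1414 without it. The 3 falls lost their call while their log2 values changed little. Abcb1b was at -0.26 with ERCC scaling and -0.27 without it, Abcc1 at -0.18 and -0.19, and Abce1 at -0.14 and -0.15. Why these calls ended was not tested. Rosiglitazone against DMSO asks it of a PPARγ ligand, and edgeR called 0 of the 24 genes, against 1.04% of all genes; 4 had an unadjusted p under 0.05 and DESeq2 also called 0. Groups of 6 did not overlap for 0 of the 24 (1.52% of all genes). All 3 comparisons share the DMSO libraries.

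**Figure D3:**
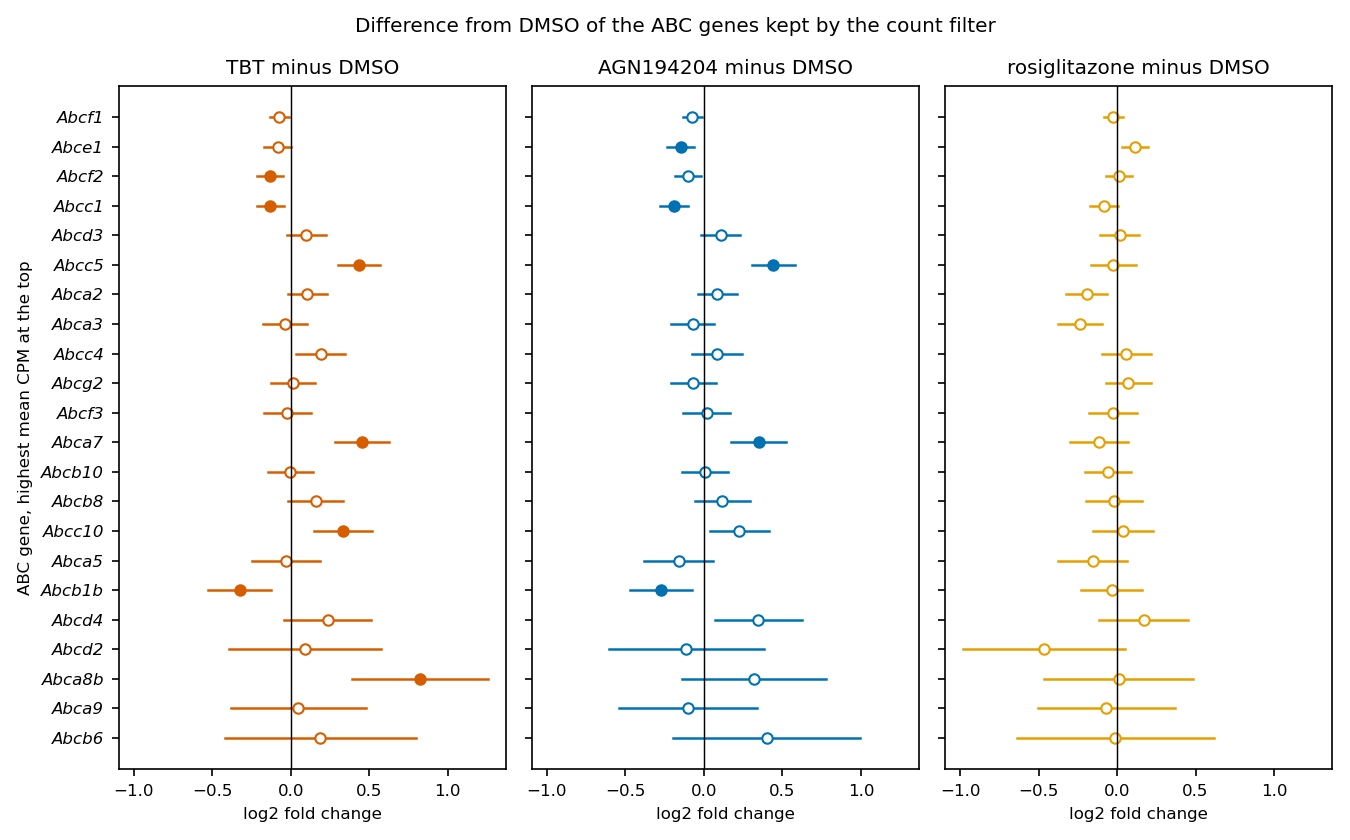
Log2 fold change against DMSO of 22 expressed ABC genes with 95% confidence intervals, for TBT, AGN194204 and rosiglitazone. Filled points passed the edgeR test (adjusted p at most 0.05): 7 for TBT, 5 for AGN194204 and 0 for rosiglitazone.

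Of 6 lipid transporters of the ABCA subfamily, 2 were higher under TBT (15% of all genes were) and 1 under AGN194204 (12.8%), with 0 lower (13.9% and 11.3%), and nothing is read from counts this small about the subfamily. Abca7, the closest relative of Abca1 and a phospholipid transporter, had 29.9, 36.0 and 38.3 CPM in DMSO (lowest, median and highest of 6 libraries), 26.1, 32.2 and 39.6 under rosiglitazone, 38.9, 44.9 and 52.4 under AGN194204 and 41.9, 48.7 and 54.1 under TBT. Every AGN194204 and TBT library lay above every DMSO library. The log2 fold change was 0.45 ± 0.09 for TBT and 0.35 ± 0.09 for AGN194204 (SE), at edgeR adjusted p of 7.4e-05 and 0.0024. Groups of 6 did not overlap for 4 of the 24 genes under TBT (11.7% of all genes tested) and for 2 under AGN194204 (11.6%). Because these are bulk samples, more cells using a gene and more RNA per cell cannot be told apart here or for any gene that follows.

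The sequence before the start of Abca7 is printed because its RNA rose under both RXR ligands (RefSeq, GRCm38.p6, plus strand, chr10:79996244-79996452, up to the first annotated base of the gene, capitals mark CpG). It holds the receptor half-site letters GGGTCA 1 time, on the other strand (as tgaccc, from base 37 of the 209 printed).
Abca7: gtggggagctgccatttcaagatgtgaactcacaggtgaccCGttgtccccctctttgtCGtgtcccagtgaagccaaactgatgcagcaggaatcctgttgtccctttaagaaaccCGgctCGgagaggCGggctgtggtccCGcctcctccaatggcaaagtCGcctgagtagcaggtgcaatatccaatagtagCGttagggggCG
The H3K4me3 region over this start (chr10:79970601-80004600) was 34000 bases wide, mostly before the first base of the gene at 79996453. Its counts are thus not of the start alone. The region had 369 CPM in DMSO and 378 CPM under TBT. Its log2 difference was 0.03 ± 0.04 (SE, n = 4 libraries each, edgeR adjusted p = 0.89). In the authors' deposited table of differential H3K27me3 peaks, chr10:80011001-80032600 had a log2 concentration of 1.32 in DMSO and 7.26 under TBT (FDR 6.2e-14). That peak covers the 3′ part of Abca7 over 4572 bases and the neighbouring gene Arhgap45. The deposited islands show reads there in 0 of 4 DMSO libraries and in 3 of 4 TBT libraries (599, 979 and 272 reads), beside the higher Abca7 RNA under TBT.

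Abca8b, in a chromosome 11 cluster of lipid transporters with Abca5, Abca6, Abca8a and Abca9, had 2.94, 4.62 and 6.36 CPM in DMSO, 2.38, 4.26 and 8.12 under rosiglitazone, 3.98, 6.33 and 6.87 under AGN194204 and 6.72, 8.51 and 9.58 under TBT. All 6 TBT libraries lay above all DMSO libraries, and the AGN194204 libraries overlapped them. The rise under TBT was 0.82 ± 0.21 (edgeR adjusted p = 0.0030), the largest log2 change of the 24 genes, and the AGN194204 value was 0.32 ± 0.23 (adjusted p = 0.34). Its closely related neighbour Abca8a had 15 counts in all, and reads from a shared stretch, if any, could be split between them.

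Abca2, a lipid transporter of late endosomes and lysosomes, had 77.9, 80.6 and 89.2 CPM in DMSO, 62.9, 69.5 and 84.3 under rosiglitazone, 74.0, 87.1 and 95.5 under AGN194204 and 83.9, 86.9 and 98.8 under TBT. Abca3, known for loading surfactant lipids in the lung, had 63.1, 70.6 and 77.4 CPM in DMSO, 53.5, 60.4 and 64.7 under rosiglitazone, 55.7, 69.2 and 76.3 under AGN194204 and 61.2, 67.6 and 73.3 under TBT. For both genes the rosiglitazone libraries sat lowest, overlapping DMSO. Neither gene passed against DMSO, at -0.19 ± 0.06 for Abca2 and -0.24 ± 0.07 for Abca3 under rosiglitazone (edgeR adjusted p of 0.17 and 0.0996). A fit of the rosiglitazone and DMSO libraries alone called Abca3 lower (adjusted p = 0.036).

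Of a list of 14 genes of cholesterol efflux and sterol trafficking 13 were tested, Abca1 and Abcg1 among them. Of the other 11, 4 rose with 0 falls under each of TBT and AGN194204 (15% and 12.8% of all genes), with a median log2 fold change of 0.11 and 0.15. Nceh1, the neutral cholesterol ester hydrolase, was at 0.42 and 0.33. Of their receptors and other regulators 11 of 16 were tested. Under TBT 2 of these rose and 1 fell (15% and 13.9% of all genes): Nr1h3, the liver X receptor alpha gene, rose by 1.31, from 6.56 ± 2.65 to 16.5 ± 2.09 CPM (SD), Pparg rose by 0.46 and the dioxin receptor gene Ahr fell by 1.18. Under AGN194204 3 rose and 1 fell (12.8% and 11.3%), with Pparg up by 0.63, the retinoic acid receptor gene Rarb by 0.62 and Nr1h3 by 1.33.

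In the ABCB subfamily the drug pump gene was lower under both RXR ligands. Abcb1b, the expressed P-glycoprotein gene, had 21.3, 25.2 and 27.2 CPM in DMSO, 19.6, 24.6 and 28.6 under rosiglitazone, 16.996, 21.4 and 23.4 under AGN194204 and 18.7, 19.3 and 22.8 under TBT. Of these the TBT and AGN194204 libraries were low and overlapped the lower DMSO libraries. It fell by 0.33 ± 0.10 under TBT and by 0.27 ± 0.10 under AGN194204 (edgeR adjusted p of 0.011 and 0.037). Its AGN194204 call ended without DMSO replicate 3, 5 or 6 or AGN194204 replicate 1, 2 or 4 (adjusted p of 0.053 to 0.10).

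ERCC scaling left -0.24 for Abcb1b under TBT and -0.26 under AGN194204, at adjusted p of 0.18 and 0.19. Of the mitochondrial members, Abcb8 and Abcb10 were not called against DMSO, and neither was Abcb6. Of 19 genes of heme synthesis and iron-sulfur assembly, all tested, 2 rose and 2 fell under TBT (15% and 13.9% of all genes), led by Alas1, the first enzyme of heme synthesis, at 0.38, and 2 rose and 1 fell under AGN194204 (12.8% and 11.3%), with Alas1 at 0.42.

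Of 4 ABCC genes, 2 were higher and 1 lower under TBT (15% and 13.9% of all genes), and 1 was higher and 1 lower under AGN194204 (12.8% and 11.3%). Abcc5 (MRP5), a pump for organic anions and cyclic nucleotides, had 66.2, 70.5 and 79.4 CPM in DMSO, 63.6, 70.3 and 77.1 under rosiglitazone, 87.7, 98.0 and 107 under AGN194204 and 83.6, 94.8 and 117 under TBT. Both RXR ligand groups lay wholly above DMSO and rosiglitazone. It rose by 0.44 ± 0.07 under each of TBT and AGN194204 (edgeR adjusted p of 3.3e-06 and 3.2e-06). TBT replicate 2 was the highest library, and without it the TBT value was 0.36 (adjusted p = 1.4e-05). The sequence before its start (RefSeq, GRCm38.p6, minus strand, chr16:20426429-20426644, outside the annotated gene, capitals mark CpG) holds neither half-site searched.
Abcc5: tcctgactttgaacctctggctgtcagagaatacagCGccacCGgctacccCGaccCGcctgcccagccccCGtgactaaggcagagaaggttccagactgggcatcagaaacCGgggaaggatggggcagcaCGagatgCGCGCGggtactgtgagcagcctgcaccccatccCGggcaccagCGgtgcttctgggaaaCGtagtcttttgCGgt
The H3K4me3 region at this start (chr16:20423201-20427600) had 45.8, 41.1, 37.8 and 50.0 CPM in the 4 DMSO libraries and 49.7, 49.8, 36.7 and 51.0 in the 4 TBT libraries. The groups overlapped, at a log2 difference of 0.10 ± 0.12 (edgeR adjusted p = 0.88).

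Abcc10 (MRP7), which carries lipophilic anions and drugs, had 23.4, 27.3 and 32.5 CPM in DMSO, 25.3, 28.2 and 33.3 under rosiglitazone, 25.0, 33.2 and 37.1 under AGN194204 and 32.2, 34.6 and 38.6 under TBT. The TBT libraries were high and overlapped DMSO at its top library. It rose by 0.33 ± 0.09 under TBT (edgeR adjusted p = 0.0052), with 0.22 ± 0.09 under AGN194204 (adjusted p = 0.076, and 0.014 to 0.033 without DMSO replicate 2 or AGN194204 replicate 6). Abcc10 overlaps the gene Dlk2 in the annotation.

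Abcc1 (MRP1), the exporter of glutathione conjugates and leukotriene C4, had 127, 135 and 148 CPM in DMSO, 124, 129 and 131 under rosiglitazone, 108, 119 and 131 under AGN194204 and 115, 124 and 129.9 under TBT. The groups overlapped, with AGN194204 lowest. It fell by 0.13 ± 0.04 under TBT and by 0.19 ± 0.04 under AGN194204 (edgeR adjusted p of 0.024 and 0.0013). The TBT call ended without DMSO replicate 2, DMSO replicate 6 or TBT replicate 6 (adjusted p of 0.052 to 0.086), and with ERCC scaling the values were -0.04 and -0.18 (adjusted p of 0.81 and 0.24). Abcc4 (MRP4), the pump for cyclic AMP and prostaglandins, had 48.8, 57.0 and 67.4 CPM in DMSO, 59.2, 60.5 and 62.3 under rosiglitazone, 55.7, 60.2 and 69.8 under AGN194204 and 55.3, 65.4 and 81.2 under TBT. These ranges overlapped and Abcc4 was not called, at 0.19 ± 0.08 under TBT (adjusted p = 0.057, and 0.019 to 0.0497 without DMSO replicate 2 or 4 or TBT replicate 4, 5 or 6). TBT replicate 2 was again the highest, and without it the value was 0.12 (adjusted p = 0.25). Of 18 genes of glutathione synthesis and conjugation, which make substrates of these pumps, 14 were tested: 5 rose and 3 fell under TBT (15% and 13.9% of all genes), 4 rose and 2 fell under AGN194204 (12.8% and 11.3%), and 2 rose under rosiglitazone (0.615%). Mgst1 and Mgst3, membrane-bound glutathione transferases, were higher under each compound, at 1.06 and 1.38 under TBT.

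In the ABCD subfamily, Abcd3 (PMP70), the abundant peroxisomal importer of branched and long-chain acyl-CoA, had 82.8, 88.2 and 95.5 CPM in DMSO, 79.0, 93.3 and 96.7 under rosiglitazone, 92.8, 96.7 and 99.2 under AGN194204 and 86.5, 90.2 and 117 under TBT. All groups overlapped and it was not called, at 0.10 ± 0.06 under TBT and 0.11 ± 0.06 under AGN194204. Without TBT replicate 2, its highest TBT library, the TBT value was 0.02. Abcd4, the lysosomal cobalamin transporter, was at 0.23 ± 0.14 and 0.35 ± 0.14 (adjusted p of 0.21 and 0.060). Of 18 peroxisomal genes of fatty acid handling 15 were tested, and 4 rose under TBT and 5 under AGN194204 with 0 falls (15% and 12.8% of all genes). Acaa1a, the thiolase of peroxisomal β-oxidation, rose by 0.45 under TBT and by 0.34 under AGN194204.

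The ABCE and ABCF genes, which act on ribosomes, number 4, of which 1 was lower under TBT, Abcf2 (13.9% of all genes were), and 1 under AGN194204, Abce1 (11.3%), with 0 higher. Abce1, which splits ribosomes after termination, had 257, 277 and 297 CPM in DMSO, 281, 302 and 313 under rosiglitazone, 225, 249 and 274 under AGN194204 and 237, 264 and 274 under TBT. The rosiglitazone libraries all lay above the AGN194204 and TBT libraries, while DMSO overlapped each group. It fell by 0.15 ± 0.04 under AGN194204 (edgeR adjusted p = 0.0080), with -0.08 ± 0.04 under TBT (adjusted p = 0.14). Abcf2 had 158, 166 and 174 CPM in DMSO, 161, 167 and 181 under rosiglitazone, 145, 153 and 169 under AGN194204 and 146, 152 and 160.3 under TBT, with overlap of DMSO and TBT at their edges. It fell by 0.13 ± 0.04 under TBT (adjusted p = 0.011), with -0.10 ± 0.04 under AGN194204 (adjusted p = 0.059, and 0.013 to 0.047 without DMSO replicate 5, rosiglitazone replicate 5, AGN194204 replicate 2 or TBT replicate 2).

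Abcf1 had 309, 315 and 327 CPM in DMSO, 306, 310.4 and 319 under rosiglitazone, 286, 302 and 316 under AGN194204 and 287, 304 and 309 under TBT. All TBT libraries lay just below all DMSO libraries, yet the difference of -0.07 ± 0.03 was not called (edgeR adjusted p = 0.065, and 0.049 without DMSO replicate 2); without AGN194204 replicate 5 or TBT replicate 2 it was called lower under AGN194204 (adjusted p of 0.033 and 0.039). With ERCC scaling the TBT values of Abce1 and Abcf1 turned to 0.01 each, and those of Abcf2 and, under AGN194204, Abce1 were -0.04 and -0.14 with no call (adjusted p of 0.75 and 0.27). Of 13 translation partners, 12 were tested, and 4 fell under TBT and 3 under AGN194204 with 0 rises (13.9% and 11.3% of all genes fell). Etf1, the release factor that works with Abce1, fell by 0.17, from 315 ± 12.8 to 281 ± 10.6 CPM, and Hbs1l by 0.20.

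The single expressed ABCG gene, Abcg2, a drug and urate pump that marks stem-like cells in many tissues, averaged 54.3 ± 4.18 CPM in DMSO, 57.2 ± 3.76 under rosiglitazone, 52.0 ± 3.72 under AGN194204 and 54.7 ± 6.50 under TBT (SD, n = 6). It was not called in any comparison. Outside the naming pattern, the ABC gene Tap1, which feeds peptides to MHC class I molecules, rose from 45.3 ± 7.81 to 97.6 ± 24.0 CPM under TBT (log2 1.10) and to 93.0 ± 14.5 under AGN194204 (1.03), and its partner Tap2 rose by 0.61 and 0.63. Of 7 peptide-loading partners 3 and 4 rose (15% and 12.8% of all genes), among them Tapbp at 0.23 and 0.35.

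**Figure D4:**
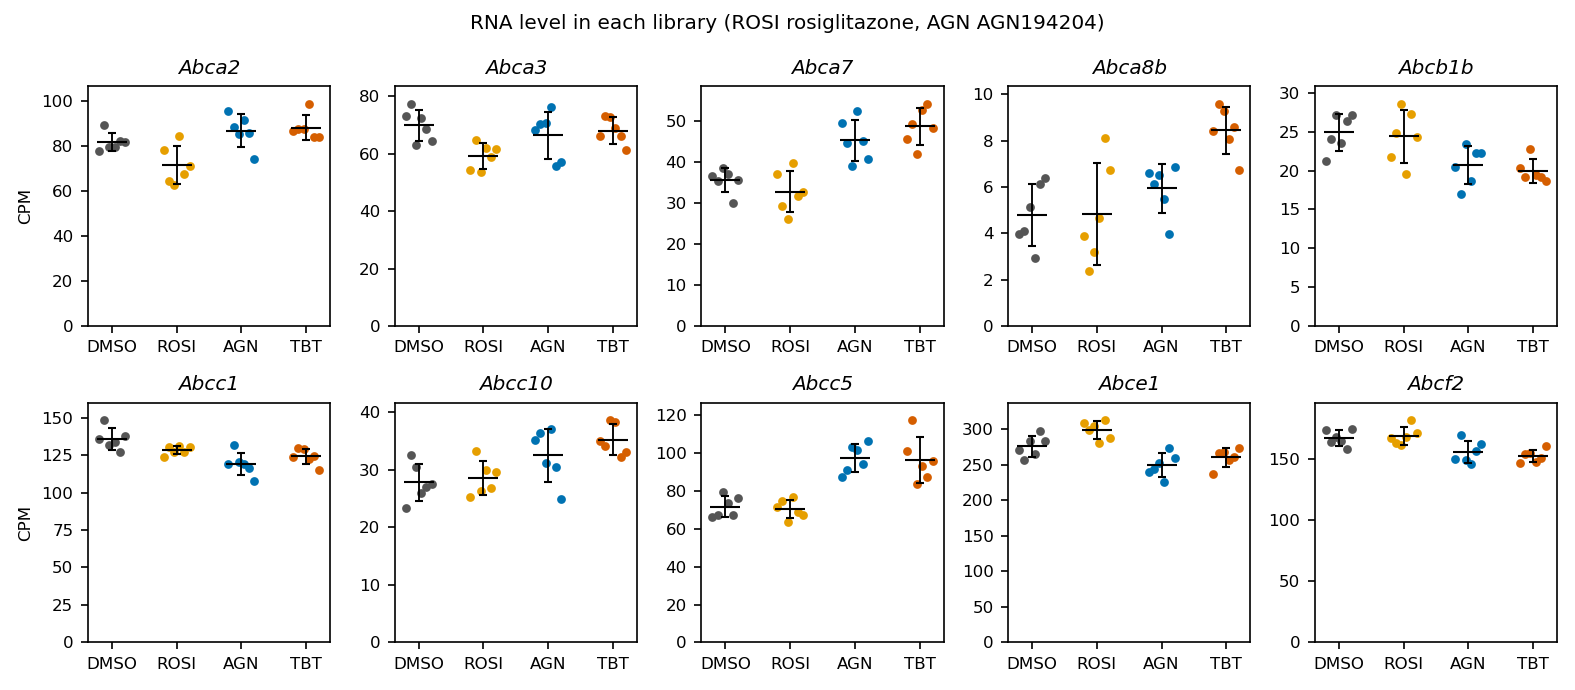
CPM in each of the 6 libraries per treatment (points) with mean and SD (bars) for 10 ABC genes that passed the edgeR test in at least 1 of the 6 comparisons; each axis starts at 0. Abca7 and Abcc5 under AGN194204 and TBT, and Abca8b under TBT, lie wholly above DMSO.

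Between compounds the doses differ for TBT, at 50 nM against 100 nM for the others. Against AGN194204, TBT had 0 of 24 genes called by edgeR, against 0.846% of all genes, with 1 at an unadjusted p under 0.05 (Abca8b, 0.51 ± 0.21) and 0 called by DESeq2. Groups did not overlap for 0 of the 24 (0.918% of all genes). The 95% intervals of the difference reached from -0.80 to 0.93 over the 24 genes and lay within 0.2 of 0 on the log2 scale for 10 of them, and for the other 14 larger differences are within the interval. For Abcc5 the interval was -0.14 to 0.13 and for Abca7 -0.06 to 0.27.

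Against rosiglitazone, more of the 24 genes separated. TBT was higher for 7 and lower for 4, 45.8% against 28.7% of all genes, and AGN194204 was higher for 4 and lower for 2, 25% against 24.7%. Groups did not overlap for 5 genes with TBT (12.3% of all genes) and 3 with AGN194204 (11.4%). Abcc5 was higher by 0.46 ± 0.07 with TBT and 0.47 ± 0.07 with AGN194204, and Abce1 differed by -0.20 ± 0.04 and -0.26 ± 0.04. Abca2 and Abca3 were called only here: Abca2 at 0.30 ± 0.06 and 0.28 ± 0.06 for TBT and AGN194204 (edgeR adjusted p of 0.00040 and 0.0011), and Abca3 at 0.20 ± 0.07 for TBT (adjusted p = 0.029, and 0.065 to 0.085 without rosiglitazone replicate 1 or 3 or TBT replicate 2 or 3). The call of Abcb1b against TBT ended without rosiglitazone replicate 3 or 5 (0.065 and 0.080), and that of Abcf2 against AGN194204 without rosiglitazone replicate 4, 5 or 6 or AGN194204 replicate 1, 3 or 4 (0.054 to 0.11). ERCC scaling, which moved the median of all genes by 0.13 for TBT against rosiglitazone, gave 8 higher and 0 lower for TBT. For AGN194204 it gave 4 higher and 0 lower. Over all genes it gave 2426 higher and 172 lower for TBT, and 1162 higher and 184 lower for AGN194204.

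**Figure D5:**
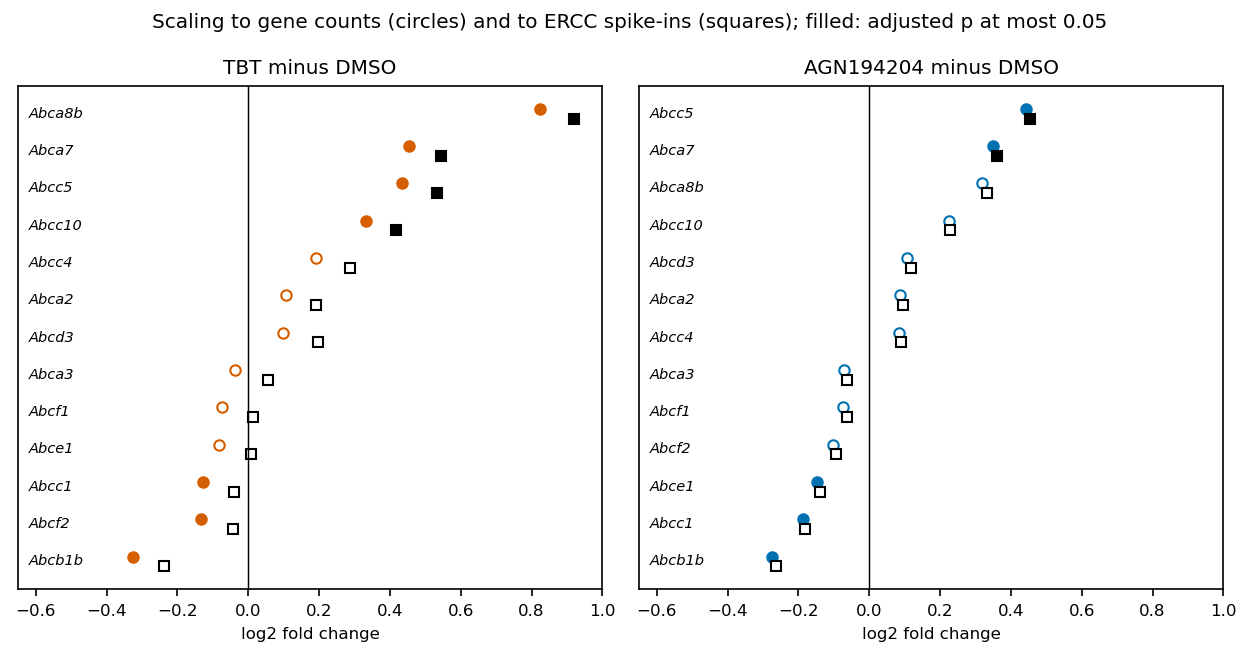
Log2 fold change against DMSO of the 13 ABC genes described library by library, scaled to gene counts (circles) and to ERCC spike-ins (squares), for TBT and AGN194204; filled symbols have an adjusted p of at most 0.05. Under TBT the squares lie to the right of the circles; no fall is filled with spike-in scaling, and Abca3, Abcf1 and Abce1, none of them called under TBT, change sign there.

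Among regions with an island in all 8 libraries, none over an ABC gene start passed the test for either histone mark between DMSO and TBT. H3K4me3 was tested in 21 regions over the starts of 21 ABC genes, and edgeR called 0, with 0 at an unadjusted p under 0.05, against 0.141% of the 12767 regions with an island in all 8 libraries. The 21 regions were 3000 (Abcb4) to 34000 (Abca7) bases wide, so their counts are not of the starts alone. The log2 differences ran from -0.24 to 0.13. For H3K27me3 only 3 such regions lay over ABC starts, covering Abca3 with Abca17, Abcc2, and Abcg5 with Abcg8. These merged regions were 79200, 67400 and 18800 bases wide, so their counts are not of the starts alone. An island lay within 1000 bases of the start in 2 of 8 libraries for Abca3 and for Abca17. For Abcc2 and for Abcg5 it was 6 of 8, and for Abcg8 all 8. Of the 3 regions edgeR called 0 (0 at an unadjusted p under 0.05). It called 0% of 2885 regions, 187 of which had an unadjusted p under 0.05.

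The authors' deposited tables list 246 differential H3K4me3 peaks and 4329 differential H3K27me3 peaks between DMSO and TBT, and 8 of them overlap 1 of the 48 genes. The share of all genes that such peaks overlap was not computed, and nothing is read from this number about the ABC genes. Besides the Abca7 peak, H3K27me3 concentrations in the authors' deposited table were higher under TBT in Abcb4, Abcg4 and Abcc3 and lower in Abcb1a, Abcc12 and Abcc4. Of these only Abcc4 was expressed, and its peak (chr14:118583001-118588400) had islands in 2 of 4 DMSO and 0 of 4 TBT libraries. The Abcc12 peak lies inside the gene and rests on 678 and 879 reads in 2 of 4 DMSO libraries and 712 reads in 1 of 4 TBT libraries. Within 1000 bases of the Abcc12 start, H3K27me3 islands lay in 0 of 4 DMSO and 3 of 4 TBT libraries. The Abcb4 peak (chr5:8888001-8896800, FDR 0.042 in the authors' deposited table) lies over the start of that gene. It had islands in 3 of 4 DMSO and 4 of 4 TBT libraries, so it was not in the test of shared regions. The single H3K4me3 peak lies in Abcc2 (chr19:43829601-43835400), with a log2 concentration of 4.62 in DMSO and -0.33 under TBT in the authors' deposited table, and rests on 169 and 44 reads in 2 of 4 DMSO libraries. These peaks are the authors' own calls and include regions with islands in few libraries, which the test of shared regions does not use.

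The half-sites that nuclear receptors read were looked for in the same 250 bases on both strands. AGGTCA was found in 5 of 37 ABC genes (15.8% of 27025 genes) and GGGTCA in 5 of 37 (13.1%). Direct repeats of AGGTCA spaced by 1 or by 4 bases were found in 0 of 37, and in 0.0407% and 0.0148% of all genes. Of the genes called under TBT, Abca7 holds GGGTCA and Abcc10 holds AGGTCA; a match describes these letters and not a site in use.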

How the data were processed

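RNA was sequenced from 24 libraries (6 per treatment), with 4 DMSO and 4 TBT libraries for each histone mark. The authors deposited whole-number read counts per gene with ERCC spike-ins. Per the submitters' processing notes the tools were STAR, FastQC, SAMtools, DESeq2, SICER and DiffBind, and the builds GRCm38 and mm10; the read counter, its strand setting and the sequencing run of each library are not stated in the labels or notes used here, and values of overlapping genes (Abca3 with Abca17, Abcg5 with Abcg8, Abce1 with Anapc10, Abcb8 with Cdk5) are therefore less certain. Per the file headers, the deposited SICER islands hold counts of reads and a fold over input, and the authors' deposited peak tables hold log2 concentrations and p-values with their false discovery rate.

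Some genes are counted in the totals and not reported here by name. The ABC genes and all gene lists were chosen with earlier results of these data known. Genes were kept with edgeR's filterByExpr, scaled by TMM and tested with edgeR 4.0.16 (quasi-likelihood, treatment as the only term, all 24 libraries, R 4.3.3), with Benjamini-Hochberg adjustment over 12529 genes and a threshold of 0.05. Standard errors are the log2 fold change divided by the square root of F. Entries naming no gene and the 92 ERCC entries stayed out of library sizes; 20.9% to 24.3% of reads lay outside genes and 1.85% to 2.02% were ambiguous. CPM is relative to the gene counts of a library. Islands of the 8 libraries of a mark were merged, and regions with an island in all 8 were tested with edgeR. Start sites and sequences are from RefSeq (GRCm38.p6). Described in full were ABC genes of at least 1 CPM called against DMSO, the 5 with the highest mean CPM among those not called, and those called only between compounds; of related lists at most the 3 genes with the smallest adjusted p were named. Alternatives were DESeq2 1.42.0, its size factors, ERCC scaling, no filter, the 2 groups alone, a replicate block and leaving out each library. The scripts were tested on simulated data.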

Additional observations from a re-analysis of the deposited data

Results flagged for a closer look

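Among 60 groups of 6 RNA libraries and 24 groups of 4 H3K4me3 libraries, 4 held a library far from the rest, and chance gives about 1 in 20 groups. DMSO replicate 5 had 29.9 CPM of Abca7 (the others 35.3 to 38.3). TBT replicate 4 had 98.8 CPM of Abca2 (the others 83.9 to 87.8). TBT replicate 2 had 287 CPM of Abcf1 (the others 301 to 309), and this library also stood apart over all genes. It was the highest TBT library for many of the expressed ABC genes. Among them were Abcc5, Abcc4, Abcd3, Abca8b, Abca3, Abca5, Abca9, Abcc1, Abcf3 and Abcg2. Without it the rise of Abca8b under TBT was 0.78 (edgeR adjusted p = 0.0077). In the H3K4me3 region of Abcc5, TBT replicate 3 had 36.7 CPM (the others 49.7 to 51.0).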

How the results depend on the processing

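With ERCC scaling the number of lower ABC genes was 0 in each comparison of TBT or AGN194204 with DMSO or rosiglitazone. Over all genes 172 to 300 were lower in these comparisons with that scaling, against 1400 to 1745 without it. For AGN194204 against DMSO, Abcb1b, Abcc1 and Abce1 lost their call with little change in their log2 values. With no filter, 1 was lower for AGN194204 against rosiglitazone. No clear pairing of the samples by replicate number was seen. Over 36 same-numbered pairs the correlation of deviations ran from -0.046 to 0.123, with a median of 0.022. Over 180 other pairs it ran from -0.154 to 0.137, with a median of -0.006. Of 24 libraries, 6 correlated best with their own number. With the replicate block, lower ABC genes numbered 5 for AGN194204 against DMSO, 4 against rosiglitazone and 1 for rosiglitazone against DMSO, which was also 1 (Abca3) with the 2 groups alone. Over all genes the block gave 1554, 1561 and 110 lower in these 3 comparisons, against 1414, 1400 and 53 without it. It raised the calls over all genes in both directions in all 6 comparisons. Leaving out each library gave 4 to 6 higher and 3 to 4 lower for TBT against DMSO, 3 to 4 and 2 to 5 for AGN194204 against DMSO (5 without TBT replicate 2), 6 to 8 and 3 to 4 for TBT against rosiglitazone, 4 to 6 and 1 to 3 for AGN194204 against rosiglitazone (1 without rosiglitazone replicate 5 or 6 or AGN194204 replicate 1 or 4), and 0 in the other comparisons. The cause of these moves was not tested. Over 62 gene comparisons, 0 calls reversed; other settings left 344 values on the same side of the threshold, 7 gained and 21 lost a call, and leaving out a library gave 1440, 14 and 34. A stricter island threshold left no H3K27me3 region over these genes. The depth of 3801758 to 5347365 gene counts per library limits the genes of low counts.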
